A study of Mus musculus with 12 samples.

Results

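The mouse zinc finger genes numbered Zfp900 to Zfp999 were followed across 6 RNA sequencing libraries of embryonic stem cells. They were chosen by symbol, Zfp9 followed by 2 digits and at most 1 letter, with 30 or more counts summed over the 6 libraries. Of 52535 gene entries 66 matched the symbol and 62 also reached 30 counts. The rule used the summed counts and no comparison between groups. The cells were E14, an established line of mouse embryonic stem cells, grown in medium with serum, LIF and 2i, a pair of kinase inhibitors that hold the cells in a self-renewing state. All 6 libraries shared this medium and came from total RNA depleted of ribosomal RNA. There were 2 libraries of wild type (WT), 2 of Bcat1 knockout clone 1 and 2 of Bcat1 knockout clone 2, so each knockout group is 1 clone. Bcat1 encodes the cytosolic aminotransferase that starts the breakdown of leucine, isoleucine and valine. Another 6 samples, of E14 cells followed during differentiation, were not analysed here.

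Most genes of this number range encode KRAB zinc finger proteins. In such a protein a row of C2H2 zinc fingers reads a DNA sequence, and the KRAB domain recruits the scaffold protein TRIM28 (KAP1), which brings in the histone H3 lysine methyltransferase SETDB1, heterochromatin proteins and deacetylases. In embryonic stem cells this machinery is known for silencing retrotransposons, and the genes themselves lie in clusters of near-identical copies that differ between mouse strains. For many of the genes here no target has been described. Zfp932 and its paralog Gm15446 are known to repress endogenous retroviruses in embryonic stem cells, and Zfp982 has been tied to the undifferentiated state of these cells.

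Gene counts per library ranged from 11976149 to 13923262. The 62 genes took 0.122% ± 0.00995 (SD, n = 2) of them in WT, 0.128% ± 0.0174 in clone 1 and 0.135% ± 0.00635 in clone 2. All 8 embryonic stem cell markers were detected in every library. Their summed level was 6154 to 6304 CPM (counts-per-million) in WT, 5519 to 5671 in clone 1 and 5673 to 5697 in clone 2, so both clones lay below WT. Dppa5a, with a WT mean of 1774 CPM, was the most abundant of the 8. By edgeR's test Sox2, Dppa5a and Klf4 were lower in clone 1 and Sox2 and Tdgf1 in clone 2. The fall was not uniform. Every clone library had more Nanog (649 to 753 CPM) than either WT library (621 and 636), without a call. Tdgf1 had a log2 fold change of 0.02 in clone 1. Of the 8 markers, 2 lay above 0 in clone 1 and 1 did in clone 2. The markers are named here after their values were seen, and their part in the results was not tested. Of 6 feeder markers, Twist2 and Postn were at 0 in every library. Col1a2 rose from 0 and 0.0739 CPM in WT to 1.74 and 1.15 in clone 1 and 0.929 and 1.42 in clone 2. By edgeR's test it was higher as a genotype (log2 fold change 4.80, adjusted p = 0.012) and in each clone. Thy1 was higher in clone 1 only (adjusted p = 0.0311), and Col1a1 and Pdgfrb were not called against WT. Pdgfrb averaged 19.9 CPM in WT, 24.3 in clone 1 and 17.4 in clone 2. These genes are named after their values were seen. The targeted gene did not separate the groups: Bcat1 stood at 608 CPM in WT, 639 in clone 1 and 581 in clone 2 on average (genotype log2 fold change 0.01, adjusted p = 0.977), so the RNA level gives no check of the knockout labels. The clone 1 libraries differed from each other more than those of the other groups did, over all genes as well as over the members. The chi-square per gene between both libraries of a group was 9.66 in clone 1, 3.78 in WT and 3.45 in clone 2 over all genes, and 7.38, 4.26 and 2.18 over the members. Of the members, 55 of the 62 genes were higher in clone 1 replicate 1 than in replicate 2. That number was 44 in WT and 44 in clone 2, whereas 48.7% to 51.0% of all genes tested were higher in replicate 1. Reads that fell in no annotated feature made up 5.35% of clone 1 replicate 1 and 4.25% of replicate 2. The part of these library differences in the results was not tested, and counts without a library are given where they move. Nothing in the labels says that both libraries of a group are from separate cultures. The p-values of comparisons between single groups therefore cover no more than library-to-library spread, part of which may be technical. Where both clones are taken as 1 genotype, differences between the clones enter the spread as well. Values for 6 libraries below are TMM-scaled CPM, in the order replicate 1 and replicate 2.

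Nearly all of the 62 genes were transcribed at low to moderate levels. Their mean over 6 libraries ran from 0.411 to 135 CPM with a median of 11.5, and 34 genes reached a mean of 10 CPM. Per kilobase of exon, the scale on which levels of different genes can be compared, the median was 3.25 CPM per kb. The most abundant genes on that scale were Zfp990 at 38.5, Zfp978 at 36.5, Zfp988 at 25.6, Zfp961 at 22.6 and Zfp979 at 21.7 CPM per kb. All but Zfp961, on chromosome 8, lie in a single cluster on chromosome 4. Zfp961 stood at 118 and 94.2 CPM in WT, at 95.1 and 83.0 in clone 1, and at 98.3 and 98.9 in clone 2. WT overlapped with both clones. The 16 genes of chromosome 4 together held 50.8% of all counts of the 62 genes.

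At the count threshold, Zfp973 with 31 counts, Zfp969 with 52 and Zfp965 with 57 were the lowest genes inside. Just outside were Zfp968 with 23 counts, Zfp966 with 8 and Zfp967 with 6, and Zfp957 had 1. Zfp973 stood at 0.0771 and 0.369 CPM in WT, at 0.476 and 0.307 in clone 1, and at 0.760 and 0.474 in clone 2. It was the only member that did not pass the filter on low counts, so 61 of 62 were tested. Zfp969 stood at 0.540 and 0.517 CPM in WT, at 0.872 and 0.537 in clone 1, and at 1.01 and 0.633 in clone 2. Zfp965 stood at 0.694 and 0.295 CPM in WT, at 1.74 and 0.153 in clone 1, and at 1.01 and 0.633 in clone 2. In all 3 genes WT and clone 1 overlapped.

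**Figure D1:**
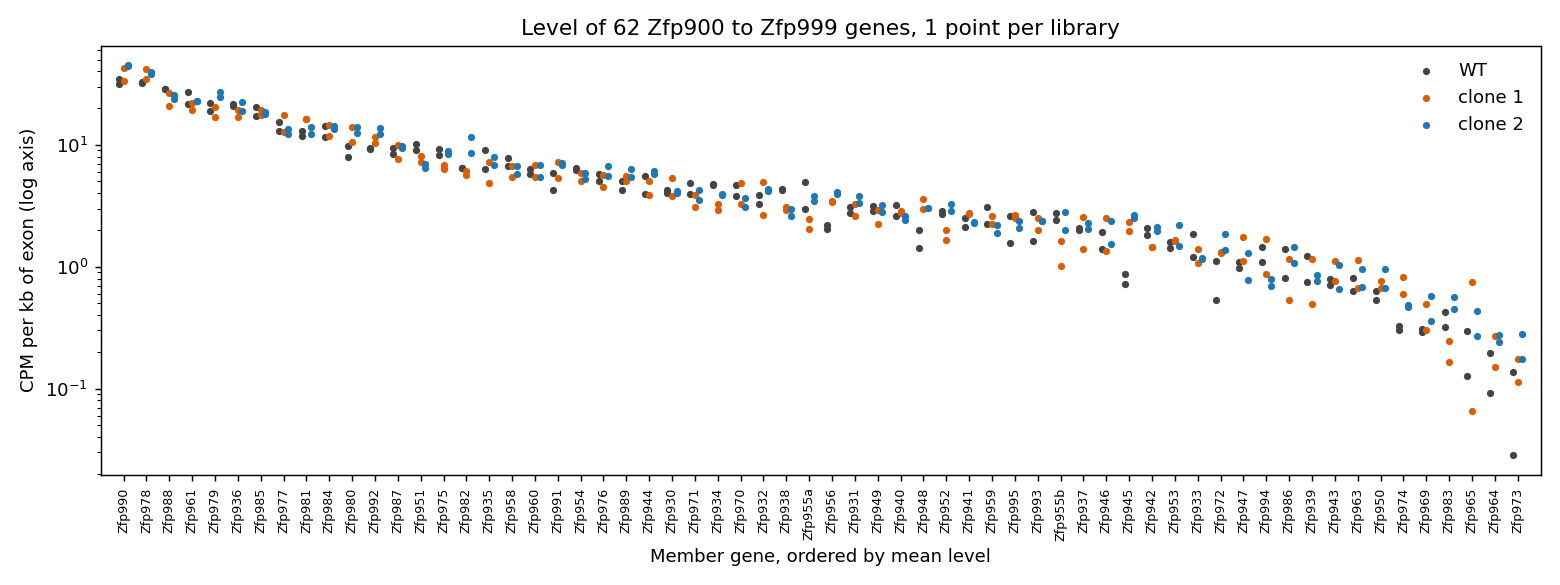
Level of each of the 62 genes in CPM per kb of exon (log axis), ordered by mean, with 1 point per library and colours for WT, clone 1 and clone 2. The 6 points of a gene mostly lie close together from Zfp990 (38.5 CPM per kb) downwards, and spread out for the genes with few counts at the right end.

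The genes lie on 11 chromosomes, with 16 on chromosome 4, 15 on chromosome 17, 9 on chromosome 7 and 8 on chromosome 2. Grouping neighbours less than 1 Mb apart placed 40 of them in 6 groups of at least 3. In the longest open reading frame of their annotated transcripts, 55 of 62 carried a KRAB box pattern, and the number of C2H2 finger patterns ran from 0 to 21 with a median of 11. Zfp939 is annotated as a transcribed pseudogene. Near-identical copies limit what a read count means here. A median of 19.7% of the 50-base windows of a member's transcripts also occurred in another gene, and the share was at least 20% in 31 members, at least 50% in 17, and 100% in Zfp935 and Zfp969. On chromosome 4 the median was 61.2% and 13 of 16 genes had a share of 20% or more, so reads of these genes may be split between copies or lost, and their values are uncertain. Another annotated gene overlapped 28 of the members, and without a stated strand setting such reads cannot be told apart.

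The promoters of the members held fewer CG dinucleotides at the median than those of genes tested, and as many as those of all genes with an entry, which is a description with no test. Of the 62 genes, 52 had an entry in RefSeq's promoter table (GRCm38.p6), of which the 250 bases before the annotated start were read. For a gene with several starts, the window with the most CG dinucleotides was taken, and a motif in any of its windows counted. The number of starts per gene was not compared between the sets. The median number of CG dinucleotides taken this way was 6, compared with 13 in 248 other numbered Zfp genes, 17 in 10456 genes tested and 6 in all 27025 genes with an entry. The motif CCGGAA, the core letters bound by ETS factors, was searched on both strands and was found in 20 of 52 members (38.5%). It was found in 31.5% of the other numbered Zfp genes, 24.9% of genes tested and 13.6% of all genes with an entry. The E-box CACGTG was found in 13.5% of members, 5.65% of the other Zfp genes, 9.94% of genes tested and 6.86% of all genes with an entry. Of the 7 members with CACGTG, all but Zfp933 lie in a single stretch of chromosome 17 (chr17:21567008-22867134). The windows of Zfp942 and Zfp943 overlap, and the same CACGTG site was counted for both. TATAAA was in 0 of 52 members, in 8.47% of the other Zfp genes, in 7.67% of genes tested and in 14.3% of all genes with an entry. A match is a description of letters and not of a bound site.

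With both clones taken as 1 genotype, 3 of the 61 genes tested differed from WT, and all of them rose: Zfp945, Zfp948 and Zfp956. This is 4.92% of the members, and 6.36% of all 14946 genes tested were called (4.25% higher, 2.11% lower), so the share of called members was near the background. No member fell under edgeR's quasi-likelihood test. At an unadjusted p under 0.05 there were 12 members, 4 of them lower, and DESeq2 called 4 higher and 1 lower. The median log2 fold change of the members was 0.06, against 0.00 over all genes, and 51 of 61 lay within 0.5 of 0. All 4 clone libraries lay above both WT libraries in 9 members (14.8%, against 18.3% of all genes) and below both in 6 (9.84%, against 16.7%). Leaving out either WT library or either clone 2 library kept 1 call, that of Zfp945. Over all genes the share called was then 0.504% and 0.629% without the first and second WT library, and 5.06% and 5.36% without those of clone 2. In bulk RNA, a change in the number of cells that express a gene and a change in RNA per cell cannot be told apart.

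The sequences upstream of Zfp945, Zfp948 and Zfp956 are shown because these were the only members called at the level of genotype. Each is the 250 bases before the RefSeq start on the gene's own strand, in lower case, with the motif CCGGAA in capitals where it occurs.
Zfp945 (chr17:22867135-22867384, minus strand): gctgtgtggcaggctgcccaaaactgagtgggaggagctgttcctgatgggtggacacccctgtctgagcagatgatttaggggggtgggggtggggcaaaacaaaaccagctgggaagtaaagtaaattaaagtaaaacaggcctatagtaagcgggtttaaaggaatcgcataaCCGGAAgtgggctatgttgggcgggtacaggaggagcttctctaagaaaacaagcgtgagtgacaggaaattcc
Zfp948 (chr17:21566728-21566977, plus strand): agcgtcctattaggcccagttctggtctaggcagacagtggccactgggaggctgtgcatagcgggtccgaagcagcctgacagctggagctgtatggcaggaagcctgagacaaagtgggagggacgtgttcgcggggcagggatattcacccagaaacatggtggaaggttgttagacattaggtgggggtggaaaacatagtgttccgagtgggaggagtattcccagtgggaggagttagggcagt
Zfp956 (chr6:47953140-47953389, plus strand): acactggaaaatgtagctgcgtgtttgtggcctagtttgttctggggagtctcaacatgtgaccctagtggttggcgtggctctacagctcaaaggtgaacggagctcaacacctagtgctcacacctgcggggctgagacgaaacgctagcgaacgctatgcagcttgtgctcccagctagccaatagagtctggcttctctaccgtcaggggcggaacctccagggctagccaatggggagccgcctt
Only the Zfp945 promoter holds CCGGAA, and none of the 3 holds the other motifs searched.

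Zfp945 showed the largest change of all members. The gene (chr17:22846697-22867134, minus strand) encodes a KRAB protein with 18 finger patterns, and 0.588% of its windows occur in another gene. Its level stood at 8.80 and 7.39 CPM in WT, at 23.6 and 20.02 in clone 1, and at 25.8 and 27.0 in clone 2. Every clone library was above both WT libraries. Its log2 fold change was 1.57 ± 0.18 (SE), or 2.98-fold, with an adjusted p of 0.00146. Clone 1 alone gave 1.43 ± 0.16 (adjusted p = 6.15e-06) and clone 2 alone 1.71 ± 0.16 (adjusted p = 8.24e-07). The call held in these 3 comparisons without any single library.

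Zfp948 lies at the other end of the same stretch of chromosome 17 (chr17:21567008-21588699, plus strand), and encodes a KRAB protein with 15 finger patterns. It stood at 5.32 and 3.77 CPM in WT, at 9.52 and 7.82 in clone 1, and at 8.11 and 8.07 in clone 2, with no overlap between WT and the clones. The rise on the log2 scale was 0.88 ± 0.22, called with an adjusted p of 0.0488 and lost with the replicate number as a block (0.0635). That call was just under the threshold and was lost without any one of the 6 libraries: leaving out WT replicate 1 gave an adjusted p of 0.163 and WT replicate 2 gave 0.361, clone 1 replicates 1 and 2 gave 0.0754 and 0.064, and clone 2 replicates 1 and 2 gave 0.0764 and 0.0685. Over all alternatives it ran from 0.00485 to 0.361. Against WT, clone 1 alone gave 0.93 ± 0.23 (adjusted p = 0.00728) and clone 2 alone 0.83 ± 0.23 (adjusted p = 0.0183). The first of these calls was lost when WT replicate 2 was left out (0.106, range 0.000492 to 0.106). The other was lost when WT replicate 2 (0.183) or clone 2 replicate 1 (0.0871) or 2 (0.0695) was left out, in a range of 0.00177 to 0.183.

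Zfp956, on chromosome 6 (chr6:47953390-47965300, plus strand), has 6 finger patterns and no match to the KRAB box pattern used here. It stood at 6.02 and 6.57 CPM in WT, at 10.3 and 10.1 in clone 1, and at 12.2 and 11.7 in clone 2. The libraries of each group lay close together and the clones stood clear of WT. On the log2 scale the rise was 0.82 ± 0.18 (adjusted p = 0.0314). With the replicate number as a block the call was lost (adjusted p = 0.06045). Leaving out WT replicate 1 or 2 gave an adjusted p of 0.295 or 0.215, and leaving out clone 2 replicate 1 or 2 gave 0.0702 or 0.0637, in a range of 0.00182 to 0.295 over all alternatives. Clone 1 alone gave 0.70 ± 0.19 (adjusted p = 0.0122), lost when WT replicate 1 (0.0961) or 2 (0.0529) was left out (range 0.00543 to 0.0961). Clone 2 alone gave 0.93 ± 0.18 (adjusted p = 0.00193), a call that held under all alternatives. Zfp783 overlaps Zfp956 on the same strand and shares 6.55% of its windows. It averaged 0.872 CPM in WT, 2.22 in clone 1 and 1.05 in clone 2 (genotype log2 fold change 0.91 ± 0.55, adjusted p = 0.366). The part of Zfp783 in the Zfp956 count was not tested. Within 1 Mb of Zfp956, 23 other genes were tested, with a genotype median of 0.21 and 18 above 0. As a genotype 1 of them was called higher and 0 lower. In clone 1, 4 were called higher and 1 lower, and in clone 2, 3 and 1. Of all genes tested, 12.4% were higher in clone 1 and 10.1% in clone 2.

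**Figure D2:**
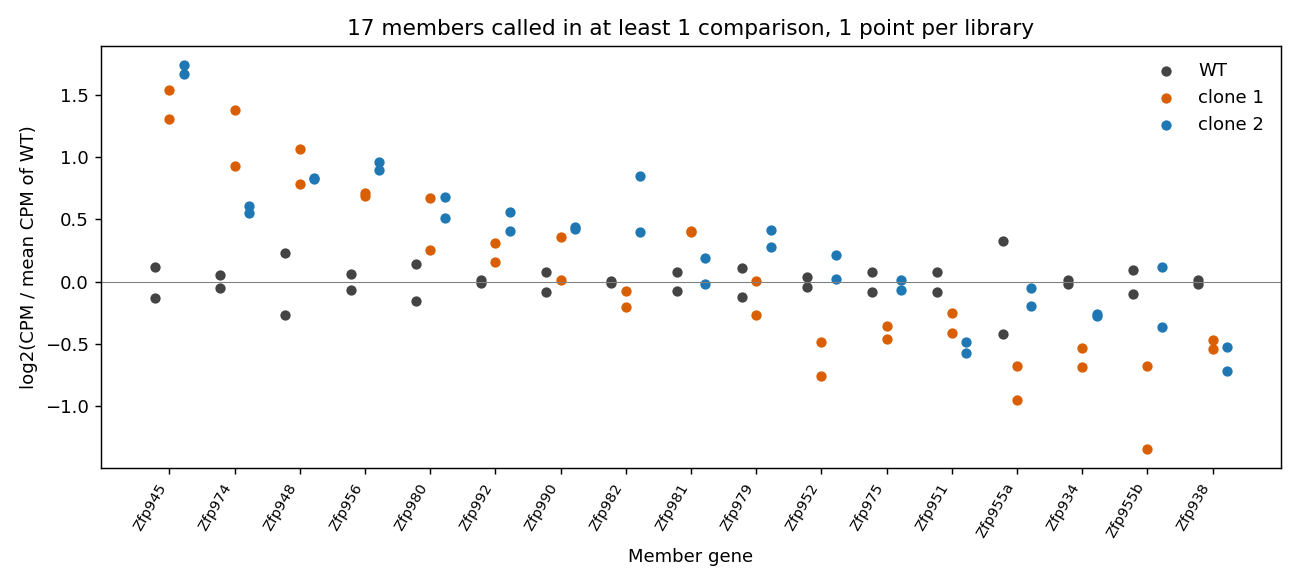
log2 of CPM over the mean CPM of WT for the 17 genes called in at least 1 comparison, with 1 point per library and colours for WT, clone 1 and clone 2. Zfp945 stands highest in all 4 clone libraries, and Zfp952, Zfp955a and Zfp955b have both clone 1 points below 0.

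Tested clone by clone against WT, 12 members changed in clone 1 (6 higher, 6 lower) and 10 in clone 2 (8 higher, 2 lower). These are 19.7% and 16.4% of the members, against 21.9% of all genes in clone 1 (12.4% higher, 9.53% lower) and 17.9% in clone 2 (10.1% higher, 7.81% lower). The calls were shared by both clones for 5 members: Zfp945, Zfp948, Zfp956 and Zfp980 rose and Zfp951 fell. All genes tested gave 5.77% higher and 3.3% lower in both clones. Both clone contrasts use the same WT libraries, so these calls are not independent. Across the 4 comparisons 17 members were called at least once and 44 never. The called genes were somewhat more abundant, with a median mean level of 18.8 CPM against 8.97 in those never called.

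Without WT replicate 1 the number of members called fell to 5 in clone 1 and 5 in clone 2, and without WT replicate 2 to 6 and 4. The share of all genes called fell as well, to 10% in clone 1 and 7.43% in clone 2 on leaving out the first WT library, and to 10.7% and 8.37% on leaving out the second. Without clone 2 replicate 1 clone 2 had 3 calls, and without replicate 2 it had 5, while 8.44% and 9.45% of all genes were called. The split in clone 1 turned with the replicate that was left out: 4 members were higher and 11 lower without replicate 1, and 11 were higher and 4 lower without replicate 2. Of all genes 22.4% and 27.6% were called in these fits, in either direction. Of 30 calls of single members in the 4 comparisons, 5 held under all alternatives: Zfp945 in the genotype and both clone comparisons, Zfp934 in clone 1 and Zfp956 in clone 2. None reversed its direction.

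Zfp951, on chromosome 5 (chr5:104813169-104860070), was the only member called lower in both clones. It stood at 48.2 and 43.1 CPM in WT, at 38.3 and 34.4 in clone 1, and at 32.6 and 30.7 in clone 2, and the clones did not overlap WT. The log2 fold change was -0.33 ± 0.11 in clone 1 (adjusted p = 0.0487) and -0.53 ± 0.12 in clone 2 (adjusted p = 0.00413). As a genotype it missed the threshold, with -0.42 ± 0.11 and an adjusted p of 0.0592. It passed with DESeq2 (0.0404), with no filter beyond 1 count (0.0244), without clone 1 replicate 1 (0.0306) and as the mean of both clone contrasts (0.00471), in a range of 0.00471 to 0.444. The clone 1 call was lost on leaving out WT replicate 1 (0.308) or 2 (0.0855), clone 1 replicate 2 (0.129), or clone 2 replicate 1 (0.0737) or 2 (0.0749), in a range of 0.0111 to 0.308. It was also lost with DESeq2 (0.0998), with a minimum mean of 1 CPM (0.0512) and when WT and clone 1 were fitted alone (0.0748). The clone 2 call was lost without WT replicate 1 (0.0835) or clone 2 replicate 2 (0.0622), in a range of 1.1e-05 to 0.0835.

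Other members were called in 1 clone and outside the main groups on chromosomes 4 and 17. Zfp934, on chromosome 13 (chr13:62479827-62571199), fell in clone 1. It stood at 26.8 and 27.5 CPM in WT, at 16.9 and 18.8 in clone 1, and at 22.5 and 22.7 in clone 2, so clone 1 was lowest and clone 2 lay between. In clone 1 the log2 fold change was -0.61 ± 0.13 (adjusted p = 0.00268), and in clone 2 it was -0.27 ± 0.13 (adjusted p = 0.162), a difference between clones of 0.34 that was not called (adjusted p = 0.0971). Zfp934 and Zfp935 overlap each other, and 30.9% of the windows of Zfp934 occur in another gene.

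Zfp974, on chromosome 7, rose in clone 1. Its reading frame held the largest number of finger patterns among the members, 21, and no match to the KRAB box pattern. It stood at 2.47 and 2.29 CPM in WT, at 6.19 and 4.53 in clone 1, and at 3.63 and 3.48 in clone 2, and the 3 groups did not overlap. The clone 1 log2 fold change was 1.17 ± 0.29 (adjusted p = 0.00758). The call was lost without WT replicate 2 (0.0655) or clone 1 replicate 1 (0.0628), in a range of 0.000954 to 0.0655. In clone 2 the value was 0.58 ± 0.30 (adjusted p = 0.207), and the clones did not differ by the test (adjusted p = 0.176).

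Zfp975, on chromosome 7 too, encodes a KRAB protein with 14 finger patterns. It stood at 41.1 and 36.9 CPM in WT, at 30.4 and 28.4 in clone 1, and at 39.3 and 37.2 in clone 2. Clone 1 was lowest and clone 2 overlapped WT. The log2 fold change in clone 1 was -0.41 ± 0.12 (adjusted p = 0.0178), lost without WT replicate 1 (0.169, range 0.00452 to 0.169). Zfp938, on chromosome 10, was called lower in clone 2 and is named here after its value was seen. It stood at 9.03 and 9.23 CPM in WT, at 6.26 and 6.60 in clone 1, and at 6.33 and 5.54 in clone 2, below WT in all 4 clone libraries. The log2 fold change was -0.62 ± 0.20 in clone 2 (adjusted p = 0.0421) and -0.50 ± 0.20 in clone 1 (adjusted p = 0.0807). The clone 2 call was lost without WT replicate 1 (0.144) or 2 (0.158), without clone 2 replicate 1 (0.105) or 2 (0.251), and with DESeq2 (0.138), in a range of 0.0169 to 0.251.

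A trio on chromosome 17, Zfp952, Zfp955a and Zfp955b (chr17:32993129-33307241), was called lower in clone 1 and not called in clone 2. All 3 encode KRAB proteins, with 9, 10 and 10 finger patterns. Zfp955a and Zfp955b are copies of each other that face in opposite directions, and share 51.8% and 49.8% of their windows with other genes, mostly each other, so reads may be split between them. Their 250 upstream bases were identical, with 0 positions that differ. The promoters of Zfp952 and Zfp955a are shown for comparison with those of the genes that rose, and the sequence of Zfp955a also stands for Zfp955b (chr17:33289294-33289543, plus strand).
Zfp952 (chr17:32992889-32993138, plus strand): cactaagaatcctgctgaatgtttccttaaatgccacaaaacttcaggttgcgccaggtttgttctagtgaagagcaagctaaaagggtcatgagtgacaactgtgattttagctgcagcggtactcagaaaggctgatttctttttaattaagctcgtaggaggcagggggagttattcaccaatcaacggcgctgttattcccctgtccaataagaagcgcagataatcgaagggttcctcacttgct
Zfp955a (chr17:33255146-33255395, minus strand): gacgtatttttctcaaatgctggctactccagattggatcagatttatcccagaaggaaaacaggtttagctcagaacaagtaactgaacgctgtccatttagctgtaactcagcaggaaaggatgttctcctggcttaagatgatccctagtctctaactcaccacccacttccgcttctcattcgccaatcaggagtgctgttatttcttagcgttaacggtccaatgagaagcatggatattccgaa
Neither holds any of the motifs searched, so no letters are in capitals.

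Zfp952 stood at 11.9 and 12.6 CPM in WT, at 8.72 and 7.21 in clone 1, and at 14.2 and 12.4 in clone 2. Zfp955a stood at 17.7 and 10.5 CPM in WT, at 8.80 and 7.29 in clone 1, and at 13.6 and 12.3 in clone 2. Zfp955b stood at 16.0 and 14.03 CPM in WT, at 9.36 and 5.91 in clone 1, and at 16.3 and 11.6 in clone 2. In each gene both clone 1 libraries were below all 4 others. The log2 fold changes in clone 1 were -0.62 ± 0.18 for Zfp952 (adjusted p = 0.0206), -0.81 ± 0.22 for Zfp955a (adjusted p = 0.0149) and -0.98 ± 0.22 for Zfp955b (adjusted p = 0.00381). In clone 2 they were 0.12 ± 0.17, -0.12 ± 0.21 and -0.11 ± 0.20, and none was called. Without WT replicate 1 the clone 1 calls were lost for Zfp952 (0.0735), Zfp955a (0.307) and Zfp955b (0.0595). That of Zfp952 was also lost without WT replicate 2 (0.117), without clone 1 replicate 2 (0.0764) and with DESeq2 (0.0562). The ranges were 0.00548 to 0.117, 0.000365 to 0.307 and 2.57e-07 to 0.0595.

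The neighbours of the trio moved in the same direction in clone 1. Within 1 Mb lie 15 other zinc finger genes that were tested, all below 0 in clone 1, 12 of them called lower, with a median log2 fold change of -0.84. In clone 2 their median was 0.07 and 1 was called lower. The 45 genes there that are no zinc finger genes had a median of -0.50 in clone 1, with 21 called lower and 1 higher, and of -0.10 in clone 2, with 6 lower and 1 higher. For comparison, 9.53% of all genes tested were lower and 12.4% higher in clone 1, and 7.81% and 10.1% in clone 2. The decrease in clone 1 was thus not limited to zinc finger genes of this stretch. Its source was not tested.

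**Figure D3:**
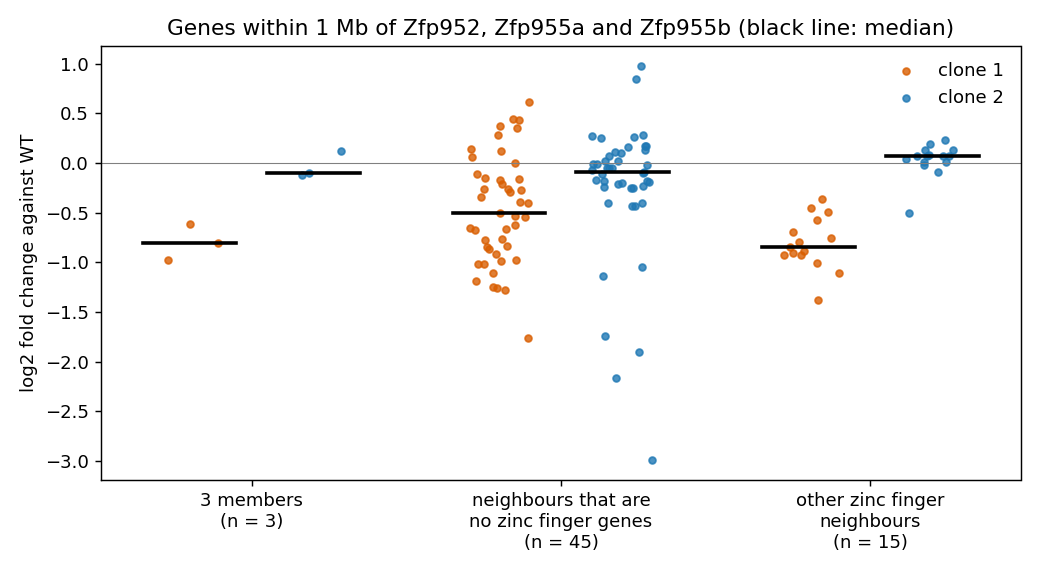
log2 fold change against WT in clone 1 and clone 2 of the members and the other genes within 1 Mb of Zfp952, Zfp955a and Zfp955b, with 1 point per gene and a black line at the median. In clone 1 all 15 other zinc finger genes lie below 0 (median -0.84), and in clone 2 their median is 0.07.

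The other group on chromosome 17 (chr17:21567008-22867134) holds 10 members, with Zfp948 and Zfp945 at its ends. These were the 2 called in the genotype fit and in each clone. The medians of the group were 0.22 as a genotype, 0.27 in clone 1 and 0.19 in clone 2. The members in between were not called in any comparison. Zfp942 stood at 9.49 and 10.9 CPM in WT, at 7.69 and 7.59 in clone 1, and at 10.3 and 11.2 in clone 2. Zfp944 stood at 15.4 and 11.1 CPM in WT, at 13.96 and 10.8 in clone 1, and at 16.0 and 16.9 in clone 2. In Zfp942 clone 1 was lowest, and in Zfp944 clone 2 was highest. Zfp943 stood at 3.39 and 3.77 CPM in WT, at 5.31 and 3.68 in clone 1, and at 4.90 and 3.16 in clone 2. Zfp946 stood at 6.79 and 4.87 CPM in WT, at 8.72 and 4.76 in clone 1, and at 8.28 and 5.38 in clone 2. Zfp947 stood at 3.16 and 2.81 CPM in WT, at 5.00 and 3.22 in clone 1, and at 3.72 and 2.21 in clone 2. For Zfp943 and Zfp946 all 3 groups overlapped, and in Zfp947 clone 1 lay above WT. Zfp995 stood at 8.18 and 4.95 CPM in WT, at 8.48 and 7.90 in clone 1, and at 6.59 and 7.51 in clone 2, so WT overlapped with both clones. Zfp994 stood at 7.02 and 5.32 CPM in WT, at 8.17 and 4.22 in clone 1, and at 3.88 and 3.40 in clone 2, where both libraries were lowest (log2 fold change -0.76 ± 0.30, adjusted p = 0.0971). Zfp983 was the rarest of the group, at 1.85 and 1.40 CPM in WT, at 0.714 and 1.07 in clone 1, and at 2.45 and 1.98 in clone 2. Here clone 1 was lowest and clone 2 highest, without a call between the clones (adjusted p = 0.0654). Among 18 neighbouring genes that are no zinc finger genes, clone 1 gave 8 that were higher and clone 2 gave 6, with medians of 0.17 and 0.22. As a genotype 3 of them were called higher by edgeR and 6 by DESeq2, and 0 lower. Over all genes tested 12.4% were higher in clone 1, 10.1% in clone 2 and 4.25% as a genotype. Higher calls around this stretch were thus not limited to zinc finger genes, but they lay on the side of Zfp945. Of 28 tested genes of any kind within 1 Mb of Zfp945, 3 were called higher as a genotype, 8 in clone 1 and 6 in clone 2. In each of these comparisons 1 was called lower. Of 21 such genes within 1 Mb of Zfp948, 0 were called in any comparison. The source of these calls was not tested. Among 15 other zinc finger genes 1 was called lower in each clone, with medians of 0.14 and 0.19.

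The cluster on chromosome 4 (chr4:145510759-147848366) holds 16 members, the largest group. As a genotype 0 were called by edgeR, with 5 at an unadjusted p under 0.05 (4 higher, 1 lower) and 1 called higher by DESeq2, and the median was 0.19. In clone 1, 2 rose, and in clone 2, 5 rose, with medians of 0.03 and 0.22. Over all genes tested 12.4% were higher and 9.53% lower in clone 1, and 10.1% and 7.81% in clone 2. In clone 2, 13 of the 16 values lay above 0, and in clone 1, 9 did. The 5 that rose in clone 2 were Zfp979, Zfp980, Zfp982, Zfp990 and Zfp992, and those in clone 1 were Zfp980 and Zfp981. The neighbouring genes that are no zinc finger genes, 56 in number, had a median of -0.11 in each clone. Clone 1 had 10 of these 56 called lower against 3 called higher. The calls of clone 2 were split evenly, with 4 on each side. The 9 other zinc finger genes nearby had a median of -0.03 in clone 1, with 1 called lower, and of 0.10 in clone 2, with 0 called.

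Zfp980 was the one gene of the cluster called in both clones. It stood at 38.9 and 31.7 CPM in WT, at 56.3 and 42.1 in clone 1, and at 56.4 and 50.3 in clone 2, with all 4 clone libraries above WT. The log2 fold change was 0.48 ± 0.14 in clone 1 (adjusted p = 0.0204) and 0.60 ± 0.14 in clone 2 (adjusted p = 0.00633). As a genotype it was 0.54 ± 0.14, which missed the threshold (adjusted p = 0.0579). With the replicate number as a block it passed (adjusted p = 0.035). It passed with DESeq2 (0.0161), with no filter beyond 1 count (0.00327), without clone 1 replicate 2 (0.0232) and as the mean of both clone contrasts (0.00462), in a range of 0.00327 to 0.415. The clone 1 call was lost without WT replicate 2 (0.249) or clone 1 replicate 1 (0.136), in a range of 5.59e-07 to 0.249, and the clone 2 call without WT replicate 2 (0.135) or clone 2 replicate 1 (0.0843), in a range of 1.03e-07 to 0.135. Copies share 71.3% of its windows. Zfp981 stood at 41.3 and 37.1 CPM in WT, at 51.9 and 51.7 in clone 1, and at 44.7 and 38.7 in clone 2, so clone 1 was highest. Its log2 fold change in clone 1 was 0.40 ± 0.11 (adjusted p = 0.016), lost without WT replicate 1 (0.0557) or 2 (0.176), in a range of 0.00277 to 0.176.

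Zfp990, the most abundant member per length, stood at 122 and 109 CPM in WT, at 148 and 117 in clone 1, and at 155 and 157 in clone 2. Zfp992 stood at 42.0 and 42.9 CPM in WT, at 52.8 and 47.5 in clone 1, and at 62.7 and 56.2 in clone 2. Clone 2 was highest in both genes, and clone 1 overlapped WT in Zfp990 but not in Zfp992. In clone 2 the log2 fold change was 0.43 ± 0.10 for Zfp990 (adjusted p = 0.00726) and 0.48 ± 0.11 for Zfp992 (adjusted p = 0.00443). In clone 1 it was 0.20 ± 0.10 (adjusted p = 0.185) and 0.24 ± 0.11 (adjusted p = 0.124), and neither differed between the clones (adjusted p = 0.15 and 0.144). The Zfp990 call was lost without WT replicate 2 (0.134) and without clone 2 replicate 1 (0.0577) or 2 (0.0503), in a range of 7.3e-08 to 0.134. The Zfp992 call was lost without WT replicate 1 (0.064) or clone 2 replicate 1 (0.105), in a range of 8.49e-06 to 0.105.

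Zfp979 and Zfp982 were called in clone 2 and not in clone 1, and are described with the comparison of the clones. The remaining members of the cluster were not called. Zfp978 stood at 42.0 and 41.7 CPM in WT, at 53.6 and 44.5 in clone 1, and at 49.0 and 51.1 in clone 2. All 4 clone libraries were above WT, with a genotype log2 fold change of 0.24 ± 0.10 (adjusted p = 0.195). Zfp988 stood at 80.7 and 80.1 CPM in WT, at 74.5 and 58.2 in clone 1, and at 71.1 and 66.1 in clone 2. All 4 clone libraries were below WT, with a log2 fold change of -0.25 ± 0.11 (adjusted p = 0.194). Zfp991 stood at 17.1 and 12.3 CPM in WT, at 21.01 and 15.5 in clone 1, and at 19.8 and 20.6 in clone 2. Zfp989 stood at 12.2 and 10.2 CPM in WT, at 12.1 and 13.2 in clone 1, and at 12.9 and 15.1 in clone 2. In both genes the highest WT value overlapped clone 1 and lay below clone 2. Zfp984 stood at 41.2 and 34.0 CPM in WT, at 42.7 and 34.3 in clone 1, and at 39.0 and 41.2 in clone 2. Zfp985 stood at 58.8 and 49.4 CPM in WT, at 55.1 and 50.3 in clone 1, and at 51.2 and 52.8 in clone 2. Zfp987 stood at 28.5 and 25.7 CPM in WT, at 30.2 and 23.3 in clone 1, and at 29.8 and 28.7 in clone 2. WT overlapped with both clones in Zfp984 and Zfp985, and clone 2 was slightly above WT in Zfp987. Zfp933 stood at 7.95 and 5.17 CPM in WT, at 4.60 and 5.98 in clone 1, and at 4.98 and 5.06 in clone 2. Zfp993 stood at 3.55 and 2.07 CPM in WT, at 3.17 and 2.53 in clone 1, and at 3.04 and 3.01 in clone 2. Zfp986 stood at 1.16 and 1.99 CPM in WT, at 1.67 and 0.767 in clone 1, and at 1.52 and 2.06 in clone 2. In Zfp933 both clone 2 libraries lay slightly below WT, and clone 1 overlapped WT. In Zfp993 and Zfp986 WT overlapped with both clones.

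**Figure D4:**
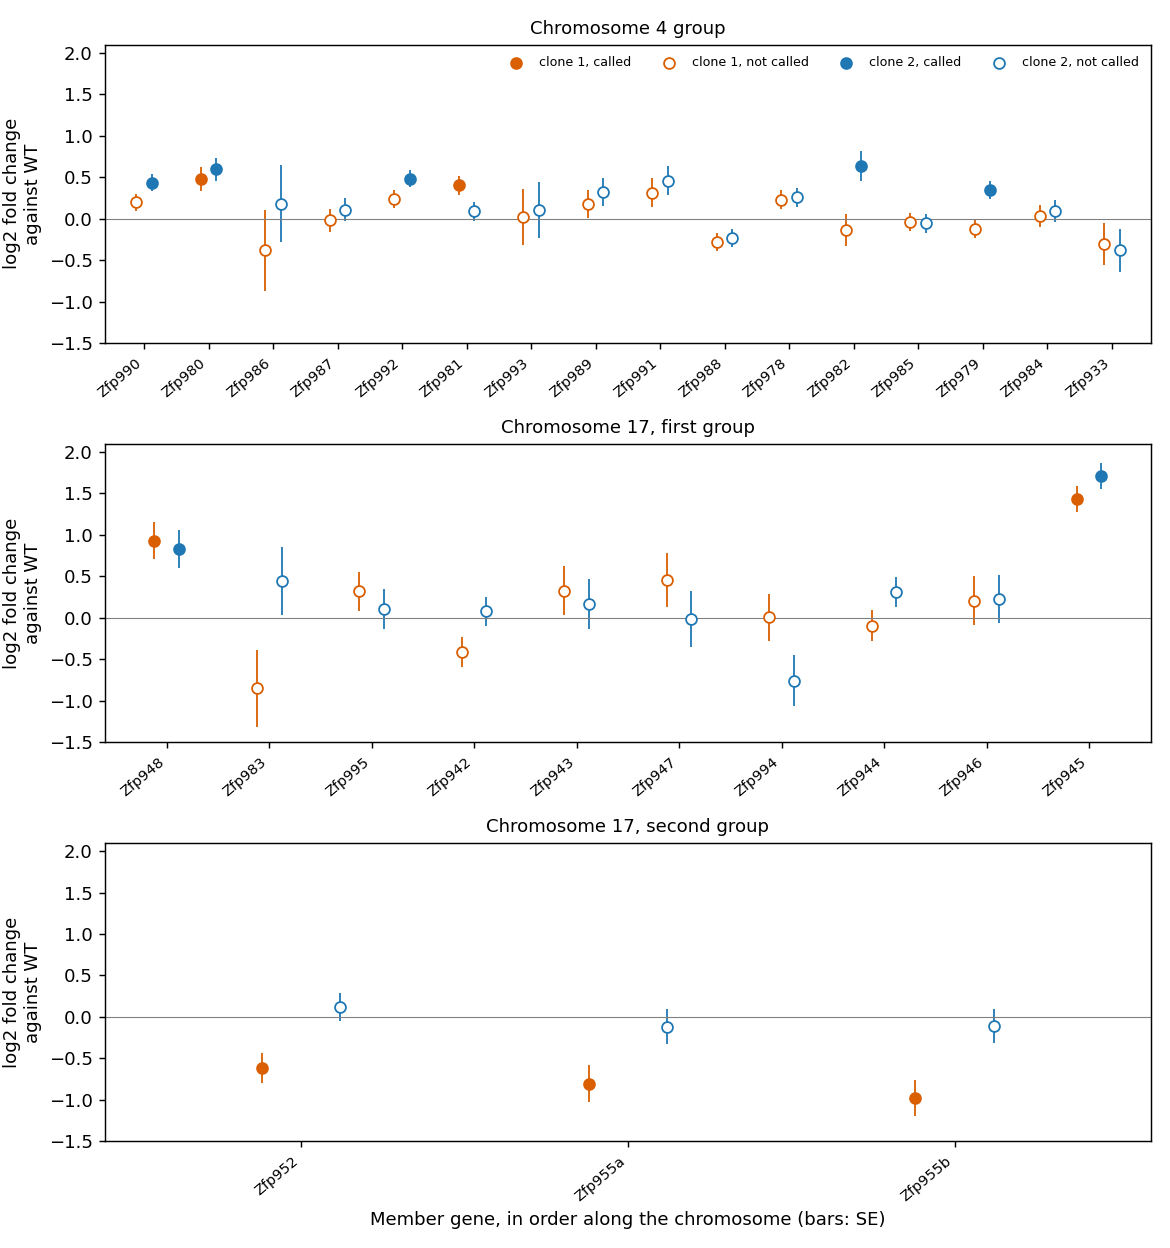
log2 fold change against WT of the members of the 3 chromosome groups, in order along the chromosome, for clone 1 and clone 2, with filled points for called genes and bars for the SE. Zfp945 and Zfp948 stand out at the ends of the first chromosome 17 group, and the 3 genes of the second group are called lower in clone 1 and not called in clone 2.

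The clones were also compared with each other, which tests their difference directly. Of 61 members 5 differed (8.2%, against 14.3% of all genes, 6.62% higher and 7.71% lower), and all 5 were higher in clone 2. No member was lower in clone 2 under edgeR's test, with 15 members at an unadjusted p under 0.05, 3 of them lower. DESeq2 called 4 higher and 0 lower. The members' median was 0.13, against 0.00 over all genes, and 41 of 61 lay above 0. The 5 genes were Zfp952, Zfp955b, Zfp975, Zfp979 and Zfp982. This count moved with the clone 1 pair: it was 14, all higher, without clone 1 replicate 1, and 8 (5 higher, 3 lower) without clone 1 replicate 2. All genes gave 16.7% and 20.2% called in these fits. Without clone 2 replicate 1 it was 0 under edgeR, with 10 members at an unadjusted p under 0.05, and 6.17% of all genes were called. DESeq2 was not run without that library.

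Zfp982 stood at 9.57 and 9.68 CPM in WT, at 9.12 and 8.36 in clone 1, and at 17.3 and 12.7 in clone 2. Zfp979 stood at 90.7 and 77.3 CPM in WT, at 84.1 and 69.9 in clone 1, and at 112 and 102 in clone 2. In both genes clone 2 was above the other 4 libraries. The difference between the clones was 0.77 ± 0.19 for Zfp982 (log2, adjusted p = 0.00987) and 0.47 ± 0.11 for Zfp979 (adjusted p = 0.00691). Against WT, clone 2 gave 0.64 ± 0.18 for Zfp982 (adjusted p = 0.0238) and 0.35 ± 0.11 for Zfp979 (adjusted p = 0.033), while clone 1 gave -0.14 ± 0.19 and -0.12 ± 0.11 without a call. The calls between the clones were lost without clone 2 replicate 1 (0.199, range 0.00104 to 0.199, and 0.111, range 2.65e-07 to 0.111). The clone 2 call of Zfp982 was lost without WT replicate 1 (0.135) or 2 (0.12), without clone 2 replicate 1 (0.359) and with DESeq2 (0.065), in a range of 0.00139 to 0.359. That of Zfp979 was lost without WT replicate 1 (0.0566) or 2 (0.317), without clone 2 replicate 1 (0.295) or 2 (0.0672), and with DESeq2 (0.0547), in a range of 0.000126 to 0.317.

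For Zfp952, Zfp955b and Zfp975 the clone 1 libraries were the lowest of the 6. Clone 2 minus clone 1 was 0.74 ± 0.18 on the log2 scale for Zfp952 (adjusted p = 0.0105), 0.87 ± 0.22 for Zfp955b (adjusted p = 0.0131) and 0.38 ± 0.12 for Zfp975 (adjusted p = 0.0366). Zfp955a, the copy of Zfp955b, came to 0.68 ± 0.22 and missed the threshold (adjusted p = 0.0507). Without clone 2 replicate 1 the values were 0.117 for Zfp952 (range 0.00136 to 0.117), 0.19 for Zfp955b (range 4.71e-06 to 0.19) and 0.245 for Zfp975 (range 0.0115 to 0.245). Zfp975 was also not called when WT replicate 1 (0.057) or 2 (0.0571), clone 1 replicate 2 (0.0622) or clone 2 replicate 2 (0.124) was left out, when the clones were fitted without WT (0.0622), and with DESeq2 (0.0824).

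The other members, 44 in number, were called in none of the 4 comparisons. Among them is Zfp932, whose protein represses endogenous retroviruses. It stood at 12.6 and 10.7 CPM in WT, at 16.3 and 8.67 in clone 1, and at 13.6 and 14.1 in clone 2, and the clone 1 pair spanned all the others (genotype log2 fold change 0.18 ± 0.24, adjusted p = 0.713). Zfp936, on chromosome 7, stood at 70.7 and 67.4 CPM in WT, at 63.3 and 55.4 in clone 1, and at 74.0 and 62.2 in clone 2, with overlap between WT and clone 2 (log2 fold change -0.12 ± 0.12, adjusted p = 0.602). Both are named after their values were seen. In the genotype fit the log2 fold changes of the 58 members without a call ran from -0.56 to 0.90, 32 above 0 and 26 below.

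Other zinc finger genes gave a comparison for these counts. Of 298 other numbered Zfp genes tested, 6 were higher and 4 lower as a genotype (median of -0.00). In clone 1 the numbers were 15 and 31, in clone 2 they were 18 and 15, and between the clones 19 were higher in clone 2 and 6 in clone 1. Of 162 other tested genes with a KRAB box pattern and a finger, 2 were higher and 1 lower as a genotype. In clone 1 these numbers were 4 and 21, and in clone 2 they were 3 and 6. Between the clones 13 of the 162 were higher in clone 2 and 2 in clone 1, with a median of 0.08. The shares of all genes were 6.62% and 7.71%. No difference between these lists and the members was tested. Within the members, the 31 with under 20% of their windows shared held all 3 genotype calls, 6 of the 12 in clone 1, 6 of the 10 in clone 2 and 2 of the 5 between the clones.

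The partners through which KRAB proteins act were read from a list of 30 genes, all tested, which holds TRIM28, SETDB1 and other factors of heterochromatin and DNA methylation. As a genotype 0 of 30 were called by edgeR (median -0.00), with 6 at an unadjusted p under 0.05 (1 higher, 5 lower) and 1 called lower by DESeq2. In clone 1, 2 rose (Dnmt3a and Suv39h1) and 7 fell, and in clone 2, 3 rose (Chd3, Hdac2 and Suv39h1) and 2 fell (H3f3a and Dnmt3l). Daxx, among those that fell in clone 1, lies within 1 Mb of the chromosome 17 trio described above. These genes are named after their values were seen. Of all genes tested, 12.4% were higher and 9.53% lower in clone 1, and 10.1% and 7.81% in clone 2. Trim28, the scaffold, stood at 2280 and 2335 CPM in WT, at 1680 and 1876 in clone 1, and at 2169 and 2174 in clone 2, lowest in clone 1. Its log2 fold change was -0.38 ± 0.07 in clone 1 (adjusted p = 0.00119) and -0.09 ± 0.07 in clone 2 (adjusted p = 0.448), and the clones differed by 0.29 ± 0.07 (adjusted p = 0.0118). As a genotype it was -0.22 ± 0.11 (adjusted p = 0.249). Setdb1, the methyltransferase, stood at 201 and 214 CPM in WT, at 256 and 223 in clone 1, and at 238 and 217 in clone 2, above WT in all 4 clone libraries, with a log2 fold change of 0.17 ± 0.09 as a genotype (adjusted p = 0.292). Zinc finger genes with a described target formed a list of 11, of which 10 were tested and Zfp708 was at 0. As a genotype 0 were called by edgeR and 0 by DESeq2, with 2 lower at an unadjusted p under 0.05. In clone 2, 1 rose (Zfp982, a member) and 1 fell (Zfp819, named after its value was seen). Some markers of other cell types moved with the clones too. The summed level of 4 trophoblast markers, of which Cdx2 passed the filter on low counts and fell in both clones, was 22.7 to 29.0 CPM in WT, 1.69 to 2.46 in clone 1 and 3.87 to 6.84 in clone 2. The 6 feeder markers summed to 23.7 CPM in WT, 32.1 to 33.3 in clone 1 and 20.7 to 21.03 in clone 2. Pdgfrb made up most of that sum, while Col1a2 was called higher in both clones. The sums of 3 neural markers were 45.7 to 55.9, 52.6 to 54.1 and 33.4 to 39.4, with clone 1 inside the WT range. For 4 primitive endoderm markers they were 0.463 to 1.48 CPM in WT, 1.27 to 1.69 in clone 1 and 0.844 to 1.03 in clone 2, so WT overlapped both clones. The part of these changes in the zinc finger results was not tested.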

How the data were processed

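RNA was sequenced from 6 libraries of E14 cells, 2 each of WT, clone 1 and clone 2. The deposited values are raw counts of reads per gene. Per the submitters' processing notes the build was mm10 and the tools included HISAT2 2.1.0, HTSeq 0.9.1 and DESeq2 1.18.1, in roles that are not stated. For the annotation and strand setting, the sources used here give nothing. In each file 5 HTSeq summary entries stayed out of library sizes and tests. They took 4.14% to 5.35% (no feature), 6.96% to 9.10% (ambiguous) and 15.6% to 16.6% (several alignments) of a library's reads, among others.

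All 14946 genes passing filterByExpr were fitted with edgeR 4.0.16 (TMM, quasi-likelihood F test, R 4.3.3), two-sided, with Benjamini-Hochberg adjustment over them at 0.05. The genotype fit treats 4 libraries of 2 clones as independent samples, which can make its p-values too small. A fit of 3 groups gave the clone contrasts. The SE is the log2 fold change over the root of F. Alternatives were RLE size factors, DESeq2 1.42.0, other filters, a replicate block, the mean of both clone contrasts, fits of the 4 libraries compared, leaving out each library, members with 100 or more counts and, added after seeing the data, members with under 20% shared windows. Positions, exon lengths and transcripts were those of GENCODE M21 (GRCm38, which is mm10), where all members had a position. Fingers and KRAB boxes were read from open reading frames of those transcripts, since no protein table was given. Figures used matplotlib 3.10.9.

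Genes were named if called as a genotype, in both clones, between clones or among the 8 smallest p in a clone. Named too were the 5 highest per kb, the 3 on each side of the threshold, and members of a chromosome group with at least 2 called. Members and lists were chosen with earlier results of these data known.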

Additional observations from a re-analysis of the deposited data

Results flagged for a closer look

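The clones differed from each other in 5 members by the test of the difference itself. On the log2 scale, clone 2 minus clone 1 was 0.47 for Zfp979, 0.77 for Zfp982, 0.74 for Zfp952, 0.87 for Zfp955b and 0.38 for Zfp975. In Zfp979 and Zfp982 clone 2 lay above WT and clone 1, and in Zfp952, Zfp955b and Zfp975 clone 1 lay below WT and clone 2. Without clone 2 replicate 1 none of the 5 calls was kept, with adjusted p of 0.111, 0.199, 0.117, 0.19 and 0.245 in the same order.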

How the results depend on the processing

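No called direction reversed under any alternative run. As a genotype 3 members were called, against 5 with DESeq2, 5 with no filter beyond 1 count and 11 with the mean of both clone contrasts, and of all genes 6.36% were called, against 9.15%, 6.51% and 21.6%. Among members with under 20% shared windows, 6 were called in clone 1, 6 in clone 2 and 2 between the clones, where fewer genes were counted. Between the clones 8 were called with no filter beyond 1 count, and 9.11% of all genes. Over all genes tested, the deviations of libraries with the same replicate number from their group means showed little correlation. It was 0.0513 for WT and clone 1, -0.0125 for WT and clone 2 and 0.125 for the clones. Of the 62 members, 44 in WT, 55 in clone 1 and 44 in clone 2 were higher in replicate 1 than in replicate 2. Whether replicate numbers pair the libraries in these genes was not tested. With the replicate number as a block the calls were 2 as a genotype, 14 in clone 1, 12 in clone 2 and 8 between the clones, with 4.32%, 29.5%, 24.7% and 20.1% of all genes called. As a genotype the block lost Zfp948 (adjusted p = 0.0635) and Zfp956 (0.06045) and added Zfp980 (0.035). Leaving out 1 library in turn gave 1 to 4 calls as a genotype, 5 to 15 in clone 1, 3 to 14 in clone 2 and 0 to 14 between the clones, with the lone library left in a group assumed to vary like the others. The share of all genes called ranged from 0.504% to 6.05%, 10% to 27.6%, 7.43% to 26.8% and 6.17% to 20.2% in these fits. At 0 calls, without clone 2 replicate 1, edgeR gave 10 members at an unadjusted p under 0.05. The cause of these shifts was not tested. Genes with few counts, such as Zfp973 with 31, limit what can be detected.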
